A study of Mus musculus with 10 samples.

Results

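The glucocorticoid receptor (GR) occupied 2354 strong genomic regions in bone marrow derived macrophages both with dexamethasone (Dex) alone and with lipopolysaccharide (LPS) plus Dex, at places where RelA, the p65 subunit of NF-κB, was listed neither after 3 h nor after 8 h of LPS. Regions were selected on the measured tag densities and on overlap. A region counted when its highest tag density was 10 or more in the LPS and Dex list, when it overlapped by at least 1 bp a Dex region of the same bound, and when it overlapped no region of RelA at 3 h or 8 h without Dex and none of input DNA. The LPS and Dex list held 51639 regions, of which 16612 reached the bound and 3406 of those met a strong Dex region. Input removed 220, and RelA removed 832 of the remaining 3186, of which 812 met the 3 h list and 327 the 8 h list. Of all 16366 strong LPS and Dex regions outside input, 18.7% met RelA at 3 h and 9.72% at 8 h. The 2354 regions left made up 4.56% of all regions called with LPS and Dex, and the 10 lists of the series held 115077 regions.

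All libraries came from primary macrophages of C57BL/6J mice, with 1 library per condition and no replicate. GR was precipitated from Dex-treated cells and from cells that had both agents, after cross-linking with 2 mM disuccinimidyl glutarate for 30 min and 1% formaldehyde for 10 min. The labels give no times for the GR treatments. RelA was precipitated after formaldehyde alone, at 0, 3 and 8 h of LPS without Dex, at these 3 times after Dex pretreatment begun 3 h ahead of LPS, and at 8 h of LPS with late Dex, whose hour the labels do not give. The input DNA came from untreated cells and is labelled as the control for the RelA libraries. RelA lists without Dex thus describe cells treated differently from those in which GR was measured.

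GR is a nuclear receptor that moves to the nucleus when it binds a glucocorticoid. It can bind DNA directly, classically at palindromic response elements from which it activates genes, or reach chromatin through other factors such as NF-κB and AP-1, a mode linked to the damping of inflammatory genes. In macrophages, LPS acts through Toll-like receptor 4 to bring RelA to the nucleus, and many enhancers are kept open by lineage factors such as PU.1 and C/EBP. The regions described here are those where the deposited lists give GR, with and without LPS, and give no RelA. Positions are on mouse build mm9 as deposited, and they were not assigned to genes, since the gene table at hand is on another build (GRCm38.p6).

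The values are the authors' own, per region. Tag density is a coverage signal whose scaling between libraries is not given, and the score is the authors' z-score. Densities of the 2 libraries are set side by side below with that limit. Both densities chose the regions, so their differences are described and not tested, and each condition rests on 1 library, so no spread between replicates is known. Wilson 95% intervals of shares cover counting error over regions only.

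Most of the regions were denser with LPS and Dex than with Dex. With LPS and Dex the highest tag density ran from 10.02 to 486.8, with a median of 32.8 (quartiles 20.2 and 52.8). With Dex it ran from 10.0 to 343.6, with a median of 16.7 (13.1 and 23.9). Densities of 100 or more were reached by 147 regions with LPS and Dex and by 24 with Dex, and 561 and 1496 regions lay below 20. Across the 2354 regions, the densities of the libraries had a Spearman correlation of 0.43. These points share their library and its depth. Of the 100 densest regions with LPS and Dex, 43 were among the 100 densest with Dex. Widths differed in the same sense as density: the median was 665 bp with LPS and Dex and 545 bp with Dex, and 76.3% of the regions (74.5 to 78.0) were wider with LPS and Dex.

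**Figure D1:**
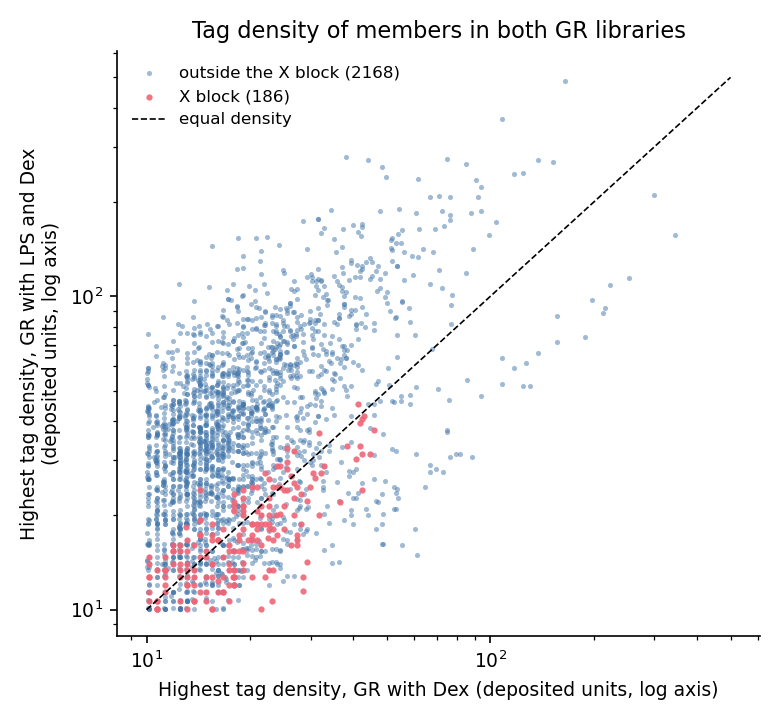
Highest tag density of each of the 2354 regions, with Dex on the x axis and with LPS and Dex on the y axis (deposited units, log axes); 1 point is 1 region, the dashed line marks equal density, and red points lie in a block of chromosome X described below. Most points lie above the line, a smaller arm of regions with high Dex density lies below it, and the red points lie around it.

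Regions next to the bound were picked by their density, so closeness in density across it is built in. The lowest densities inside it with LPS and Dex were 10.02 at chr1:87526977-87527310, chr5:32837303-32839563 and chr7:6574906-6575567. Just outside it, with a strong Dex region but a density of 9.85, 9.64 and 9.57 with LPS and Dex, were chr4:96958586-96959051, chr1:40204291-40204684 and chr2:48224610-48225357, the nearest of 197 such regions. With Dex the lowest inside were chr10:94371831-94372379, chr13:41564657-41565456 and chr19:42220655-42221215, all at 10.0. Outside lay 335 regions with a weaker Dex region, led by chr9:66729520-66730140 and chr17:43707182-43707971 at 9.96 and chr3:154915777-154916206 at 9.56. The density at chr17:43707182-43707971 was 56.5 with LPS and Dex, so a region could be strong with both agents and fall short through the Dex list alone.

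The densest region with LPS and Dex was chr17:28556820-28557865, with a highest tag density of 486.8 against 164.9 with Dex and scores of 346.5 and 136.8. By Dex density it had rank 9, and the nearest RelA region at 3 h was 89485 bp away. At chr1:30986755-30987704 the density was 367.1 with LPS and Dex and 107.95 with Dex, with RelA at 18989 bp. The third, chr1:34428609-34429533, had 278.1 and 38.2, a 7.29-fold difference, and stood at rank 219 by Dex density. At chr19:32297981-32299725, a region 1744 bp wide, the density was 274.6 and 74.7. These sites were high in both libraries and highest with LPS and Dex, although their order changed between the libraries. At chr18:38569139-38570055 the density was 272.1 and 44.1. Each of these 5 regions lay outside all 7 RelA lists.

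The densest regions of the Dex library ran the other way. Here, as for the 5 named above, the ranking used a density that enters the ratio. Such a ranking favours the library it is made on. At chr18:90771301-90772116 the density was 343.6 with Dex and 157.0 with LPS and Dex. At chr6:103264309-103265008 it was 299.7 and 210.9, with a Dex region 435 bp wide. At chr14:86598634-86599183 it was 252.7 and 114.2, and the nearest RelA region at 3 h was 7408226 bp away. All 5 of the densest with Dex, after the 5 named above were set aside, had a lower density with LPS and Dex. The others were chr2:181747335-181748092, with 223.5 and 108.9, and chr5:152536876-152537358, with 215.7 and 91.5.

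Of the 2354 regions, 1892 had the higher density with LPS and Dex, 80.4% (78.7 to 81.9). The median log2 ratio of the highest density, LPS and Dex over Dex, was 0.94 (quartiles 0.21 and 1.49). The density was at least 2-fold higher with LPS and Dex at 1106 regions, 47.0% (45.0 to 49.0), and at least 2-fold higher with Dex at 55, 2.34% (1.80 to 3.03). The background for these counts is all 19206 GR regions outside input that met a Dex region at any density: 53.1% were higher with LPS and Dex, 13.1% at least 2-fold higher with LPS and Dex, and 4.68% at least 2-fold higher with Dex, with a median log2 ratio of 0.16. Among the 3186 shared strong regions, RelA regions included, the shares were 85.1%, 56.4% and 1.73%. A bound on the density of both libraries shapes these ratios, so nothing is read from the gap to the background. Dividing each list by the median of its strong regions lowered every log2 ratio by 0.37, and then 1623 regions, 68.9%, were higher with LPS and Dex and 731 with Dex.

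The room for a ratio depends on density. Since both densities had to be 10 or more, a low geometric mean of the 2 leaves little room for a ratio in either direction, and the values by quintile are given as a description only. In the lowest quintile of the geometric mean of the 2 densities (10.1 to 16.7), the median log2 ratio was 0.11 and 57.7% of 471 regions (53.2 to 62.1) were higher with LPS and Dex. The next quintile had a median of 0.83 and 80.7% (76.9 to 84.0), and the upper 3 had medians of 1.12, 1.25 and 1.37 and shares of 87.0 to 88.5%. With each list divided by its median, the sign of the lowest quintile's median turns, since the shift is larger than 0.11.

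The 5 largest ratios towards LPS and Dex came with Dex densities of 10.1 to 18.4. At chr3:87976189-87976933 the density was 144.3 with LPS and Dex and 15.5 with Dex, a log2 ratio of 3.22. At chr1:174401453-174402217 it was 109.8 and 12.4, and the edge of a RelA region of 3 h was 690 bp away. At chr12:101289631-101290338 it was 153.8 and 18.4. The ratios of chr8:82022282-82023109 and chr14:121745307-121746299 were 7.66-fold and 7.51-fold, from Dex densities of 11.2 and 10.1. These 5 had ranks of 1006 to 2327 by Dex density, and ranks of 51 to 293 with LPS and Dex.

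Ratios towards Dex were smaller. At chr13:53365127-53365513 the density was 61.4 with Dex and 14.98 with LPS and Dex, a log2 ratio of -2.03. At chr9:95326138-95326606 it was 55.2 and 16.1, and at chr12:42241555-42241976 it was 60.3 and 18.0. The Dex density was 48.9 at chr5:106605592-106606031 and 48.3 at chr1:71125864-71126138, against 16.2 at each with LPS and Dex. The 5 regions were 274 to 468 bp wide with LPS and Dex and 452 to 622 bp wide with Dex, and no region of any RelA list overlapped them.

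At high Dex density the regions fell on both sides. The bound used here is on the Dex density, which enters the ratio and favours the Dex side. No background share at this bound is given, so the counts are a description only. Of the 119 regions with a Dex density of 50 or more, 32 were at least 2-fold higher with Dex, 40 were more than 2-fold higher with LPS and Dex, and 18 lay within 0.5 of a log2 ratio of 0. The 51 that were higher with Dex had a median density of 74.6 with Dex, against 46.2 with LPS added. The 68 that were higher with LPS and Dex had medians of 62.9 and 141.9. With each list divided by its median, 58 of the 119 were higher with Dex and 61 with LPS and Dex. A RelA region of 3 h lay within 100 kb of 15 of the 51, 29.4%, and of 44 of the 68, 64.7%. Another of the 2354 regions lay within 10 kb of 1 of the 51 and of 20 of the 68.

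Score and density ranked the regions differently at the top. Score and density were correlated over the 2354 regions (Spearman 0.82 with LPS and Dex), but the 5 highest scores were at density ranks of 10 to 314. The highest score with LPS and Dex, 1299, was at chr18:90771301-90772116, the region with the highest Dex density, where the Dex score was 3205. At chr5:23641784-23643071 the score was 657.5 at a density of 73.5. At chr13:74665761-74668220, a region 2459 bp wide, it was 540.9 at 97.5. At chr17:13245016-13245877 it was 514.9 at 76.2, and at chr7:107108677-107109690 it was 486.8 at 247.3. Of the 100 regions with the highest density, 69 were among the 100 with the highest score.

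**Figure D2:**
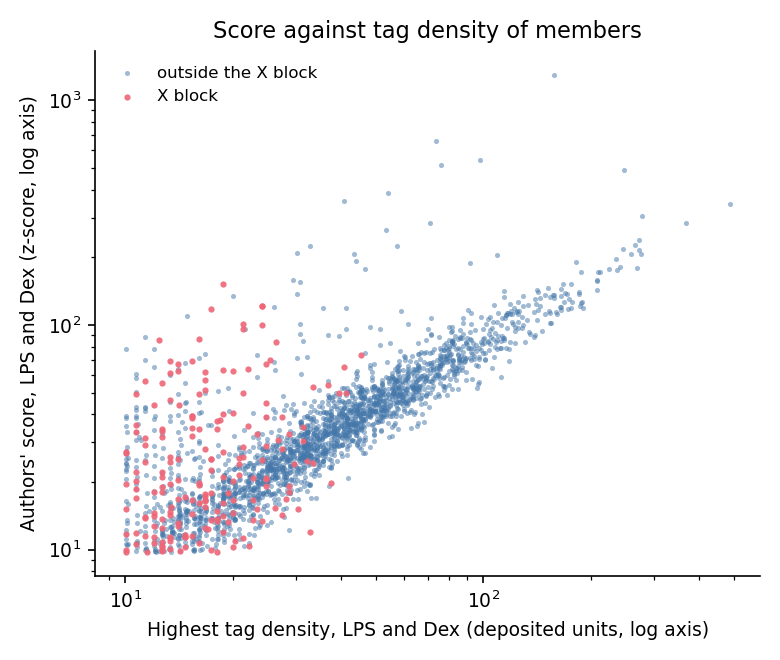
Authors' score against highest tag density of each of the 2354 regions in the LPS and Dex library (log axes); blue points lie outside the block of chromosome X and red points inside it. A narrow band holds most regions, and the highest score, 1299, stands above it at a density of 157.0.

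The widest region, chr1:24618227-24623174, spanned 4947 bp with LPS and Dex and 5111 bp with Dex, with densities of 81.5 and 77.1. The next, chr12:4219282-4221777, spanned 2495 bp at densities of 11.4 and 11.9. Both wide regions thus had almost equal densities in the 2 libraries, in contrast to the region of chromosome 13 named for its score, the third by width, whose density was 97.5 with LPS and Dex and 197.8 with Dex.

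The centres of GR regions with and without LPS lay close together. The median distance of the centres of paired regions was 31.0 bp (quartiles 14.5 and 59.5), and 69.0% (67.1 to 70.9) lay within 50 bp. A single strong Dex region was met by 2341 of the regions and several by 13. Conversely, 33 regions shared a Dex region with another, so that 2351 distinct Dex regions stood behind the 2354. Only overlapping regions were paired, which builds in part of this closeness.

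Chromosome X held 238 of the regions, 10.1% (8.96 to 11.4), against 3.65% of all strong LPS and Dex regions and 9.91% of all strong Dex regions. Of these, 186 lay in a single block, chrX:120071397-122672521, which is 2601124 bp long and was delimited, after the data had been seen, as the longest run of these regions on the chromosome with gaps of at most 1000000 bp. The block held 219 strong LPS and Dex regions and 279 strong Dex regions outside input, and 76 of the 765 input regions, 9.93%. The RelA lists of 0, 3 and 8 h without Dex had 1 of 83, 1 of 5017 and 0 of 1890 regions in it, and the late Dex list 0 of 250. The lists after Dex pretreatment had 0 of 75, 6 of 84 (7.14%) and 5 of 78 (6.41%) at 0, 3 and 8 h of LPS. These counts are small, and the part of input signal in them was not tested.

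**Figure D3:**
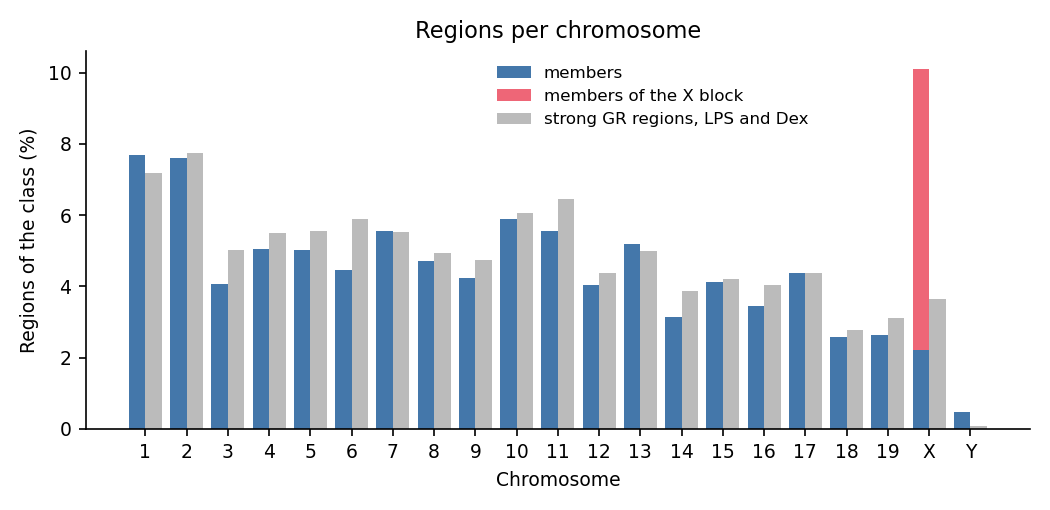
Share of the 2354 regions on each chromosome (blue, with the block of chromosome X in red) beside the share of all 16366 strong LPS and Dex regions outside input (grey), in percent. Chromosome X holds 10.1% of the 2354 and 3.65% of the 16366, and the 2 shares lie nearer to each other on the autosomes.

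Regions of the block lay close together. Their median density was 16.7 with LPS and Dex, against 35.6 outside the block, and 18.5 with Dex, against 16.7 outside. None exceeded 45.4 with LPS and Dex or 46.0 with Dex. The median gap from 1 region to the next of the class was 910.5 bp, and 93.5% (89.1 to 96.3) had another within 10 kb. The largest run, chrX:120299257-120337101, held 18 regions in 37844 bp. The median log2 ratio in the block was -0.12 (quartiles -0.39 and 0.16), 69 of the 186 were higher with LPS and Dex, none was at least 2-fold higher with LPS and Dex, and 5 were at least 2-fold higher with Dex. With each list divided by its median, the median was -0.49, and 9 of the 186 were higher with LPS and Dex. Widths were 535.5 bp with LPS and Dex and 644 bp with Dex in the median. Outside the block as a whole they were 669 and 542 bp, but several parts outside it had the order of the block. The 11 regions of chromosome Y had 449 and 529 bp, and the 63 within 10 kb of an input region had 547 and 607 bp. The 45 in runs of 5 or more had 671 and 767 bp, and the 345 higher with Dex had 516 and 593 bp. An input region lay within 10 kb of 62 of the 186, 33.3% (27.0 to 40.4), although none overlapped, and the part of such signal in these regions was not tested.

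Outside the block, 2168 regions remained, with median densities of 35.6 with LPS and Dex and 16.7 with Dex. Of these, 84.1% (82.5 to 85.6) were higher with LPS and Dex, and the median log2 ratio was 1.02 (0.34 and 1.53). Every autosome had a positive median ratio, from 0.72 on chromosome 8 to 1.28 on chromosome 19, and kept it when the lists were divided by their medians, since the shift of 0.37 is smaller. The 52 regions of chromosome X outside the block had a median of 0.31, which turns to -0.06 with the lists divided by their medians. The 11 regions of chromosome Y, of 12 strong LPS and Dex regions there, had a median of -0.29, and 3 of them were higher with LPS and Dex. An input region lay within 10 kb of 3 of the 11.

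Regions close to an input region had lower ratios than the rest, over all 2354 and outside the block. Inside the block, ratios were not split by distance to input. An input region lay within 10 kb of 125 of the 2354 regions, 5.31% (4.47 to 6.29), and of 0.269% (0.186 to 0.388) of the 10411 strong LPS and Dex regions that met neither a Dex region nor RelA. The median log2 ratio of the 125 was -0.09, against 0.99 at the 2229 farther away. Outside the block, it was -0.05 at 63 regions. With each list divided by its median, these values were -0.45 at the 125, 0.62 at the 2229 and -0.42 at the 63, and 10 of the 125 were higher with LPS and Dex. The part of input signal in these values was not tested.

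Most of the regions had no other of the 2354 within 10 kb. Outside the block, the median gap to the next was 143379 bp, 1813 regions had no other within 10 kb, and 7 runs of 5 or more held 45 regions in all. The longest, chr6:47687352-47720280, held 10 regions with a median density of 11.7 with LPS and Dex and 13.1 with Dex. The 45 regions had a median log2 ratio of -0.13, or -0.50 with each list divided by its median, and the medians of the 7 runs ran from -0.42 to 0.80 as deposited. Denser runs were also seen: chr8:47961166-47982611 held 5 with a median density of 65.7 with LPS and Dex and 24.4 with Dex, and chr10:127023112-127042048 held 4 with 40.7 and 14.2. Any other strong LPS and Dex region, of whatever class, lay within 10 kb of 52.4% (50.4 to 54.4) of the 2354.

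Few of the regions met RelA in the 5 lists that the selection did not use. A region of those 5 lists overlapped 5 of the 2354, 0.212% (0.091 to 0.496), against a background of 1.42% of all strong LPS and Dex regions outside input. With regions overlapping input kept, the share was 1.99%. By list, 1 region (0.0425%) met late Dex RelA against a background of 1.3%, and 2 (0.085%) met RelA at 0 h against 0.232%. None met RelA with Dex pretreatment alone (0.177%). The shares lay slightly above the background for pretreatment with 3 h of LPS, with 3 regions (0.127% against 0.0855%), and with 8 h, with 1 region (0.0425% against 0.0306%). The gap between 0.212% and 1.42% lay mostly in the late Dex list. These backgrounds still hold the regions that met RelA at 3 h or 8 h, which the selection removed from the 2354. Nothing is therefore read from the gap. All of these backgrounds but that of late Dex rest on 38 regions or fewer. Of the 832 shared strong regions with RelA, 74 met a region of these lists, 8.89% (7.14 to 11.0). The lists concern the same protein in the same cell type as those used for the selection, so they are not independent of it.

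The late Dex overlap was at chr6:116092048-116092867, where the GR density was 159.9 with LPS and Dex and 32.1 with Dex. RelA there had a density of 22.7 and a score of 10.3, and the nearest RelA region at 3 h was 152385 bp away. At chr1:120175341-120175888 the GR densities were 32.1 and 28.7, and RelA with pretreatment and 3 h of LPS had a density of 7.43 over 251 bp. At chr8:71997504-71998245 they were 13.4 and 12.5, and RelA with pretreatment and 8 h had 12.1. The other overlaps were at chrX:122525767-122526018 and chrX:122526041-122526292, inside the block, 23 bp apart and on the same Dex region of density 29.2. RelA at 0 h had a density of 7.12 there, and 11.5 with pretreatment and 3 h of LPS. Of the 5, the region of chromosome 6 alone had a GR density above 50.

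Although no RelA region overlapped them by selection, many regions had RelA in the neighbourhood. The nearest RelA region of 3 h was 102034 bp away in the median (quartiles 26965 and 337706), and 51 regions had it within 1 kb, 312 within 10 kb, 13.3% (11.9 to 14.7), and 1168 within 100 kb, 49.6% (47.6 to 51.6). For RelA at 8 h, whose list is shorter, the counts were 16, 131 and 580. Strong LPS and Dex regions with neither a Dex region nor RelA had RelA of 3 h within 10 kb at 16.8% (16.1 to 17.6) and within 100 kb at 56.7% (55.7 to 57.6). Outside the block the shares of the shared regions were 14.4% (13.0 to 15.9) and 53.8% (51.7 to 55.9). For the 547 strong Dex regions without a strong LPS and Dex region they were 6.22% (4.48 to 8.56) and 26.3% (22.8 to 30.2). However, 18.5% of these 547 lie inside the block, where 2 of 186 shared regions had RelA within 100 kb. Unlike the other 2 classes, the 547 were not filtered on RelA, and their smallest gap to RelA of 3 h was 0 bp.

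The ratio between the GR libraries was lower farther from RelA. Distance was not used to choose the regions beyond the overlap itself, but both densities in the ratio were. No background of the ratio by distance was computed, so the values are a description only. Outside the block, the median log2 ratio was 1.25 (quartiles 0.79 and 1.71) at the 312 regions with RelA of 3 h within 10 kb, 1.12 (0.56 and 1.56) at the 854 from 10 to 100 kb, and 0.81 (0.03 and 1.42) at the 1002 farther away. The shares higher with LPS and Dex were 93.3% (89.9 to 95.6), 90.3% (88.1 to 92.1) and 75.9% (73.2 to 78.5). The LPS and Dex density had medians of 41.6, 38.9 and 30.7 in the 3 groups, and the Dex density had medians of 16.7, 16.6 and 16.7. All strong Dex regions outside input had a median of 16.6 under the same bound, so nothing is read from the equal Dex medians. The groups overlapped widely in their quartiles. Input regions lay within 10 kb of 0.641%, 1.17% and 5.09% of the 3 groups, and their part in these differences was not tested.

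**Figure D4:**
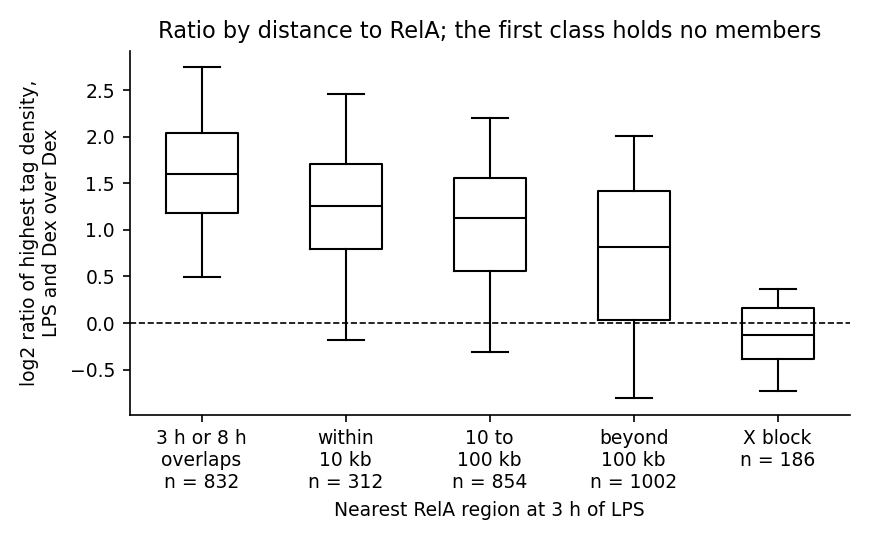
log2 ratio of the highest GR tag density, LPS and Dex over Dex, by the distance to the nearest RelA region of 3 h, for regions outside the block of chromosome X, for the block, and for the 832 shared strong regions that RelA overlapped at 3 h or 8 h; boxes give quartiles and median, whiskers the 5th and 95th percentiles. Medians are 1.25 within 10 kb and 0.81 beyond 100 kb, and the block sits at -0.12.

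The 345 regions outside the block that were higher with Dex were set beside the 1823 that were higher with LPS and Dex. This split is on densities as deposited. With each list divided by its median, 209 of the 1823 were higher with Dex, and the shares below are not given for that split. RelA of 3 h lay within 100 kb of 30.1% (25.5 to 35.2) of the former and 58.3% (56.0 to 60.5) of the latter, and input within 10 kb of 10.4% (7.63 to 14.1) and 1.48% (1.02 to 2.15). Of the 50 that were at least 2-fold higher with Dex, none had an input region within 10 kb (Wilson upper bound 7.13%). Over all 2168 regions outside the block, 63 had one. The Dex density of the 50 was 24.9 or more, while the 63 had an upper quartile of 19.4. Few of the 63 could thus enter this class, and nothing is read from the absence of input. RelA of 3 h lay within 100 kb of 12 of the 50, 24.0% (14.3 to 37.4). The share was 61.5% (58.6 to 64.3) of the 1106 at least 2-fold higher with LPS and Dex. The median Dex density of the 50 was 57.8, and 49 of them had no other region of the class within 10 kb.

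The 832 shared strong GR regions that RelA overlapped at 3 h or 8 h were set beside the 2354. Their median GR density was 64.6 with LPS and Dex (quartiles 42.2 and 99.1), against 32.8 at the 2354. With Dex it was 18.5 (14.3 and 28.0), against 16.7. Both densities had to be 10 or more, and all strong Dex regions outside input had a median of 16.6. Nothing is therefore read from the smaller gap with Dex. With RelA, 98.3% (97.2 to 99.0) were higher with LPS and Dex, 83.2% (80.5 to 85.6) were at least 2-fold higher, and the median log2 ratio was 1.59 (1.19 and 2.04). None was at least 2-fold higher with Dex. The classes differ in density, which bears on the room for a ratio. At geometric mean densities of 30.6 to 39.3, the middle quintile of the class with RelA, the median was 1.84, and at 27.6 to 38.7, the nearest quintile without RelA and outside the block, it was 1.28. Late Dex RelA met 69 of the 832, 8.29% (6.61 to 10.4), and 1 of the 2354. Input regions lay within 10 kb of 1 of the 832, and 1.44% (0.827 to 2.50) were on chromosome X.

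**Figure D5:**
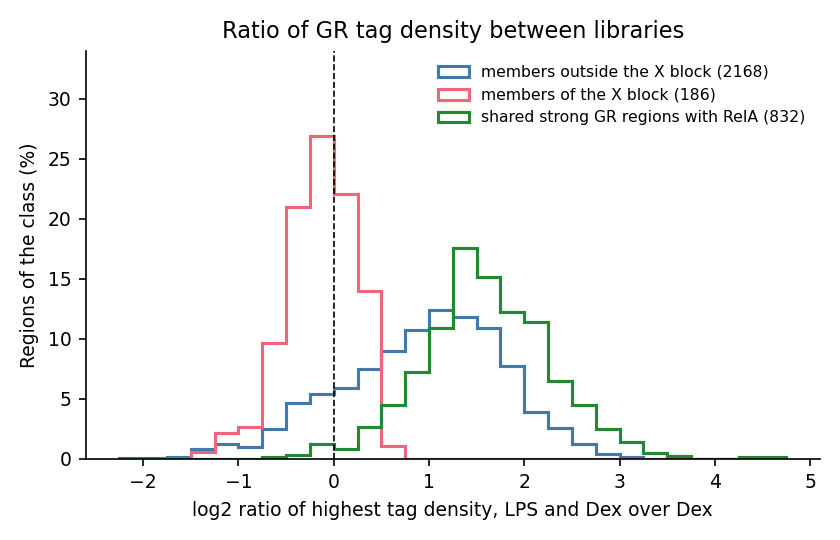
Distribution of the log2 ratio of the highest GR tag density, LPS and Dex over Dex, for 2168 shared regions without RelA outside the block of chromosome X (blue), the 186 of the block (red) and the 832 shared regions with RelA (green), as percent of each class in bins of 0.25. The red distribution has its median at -0.12 as deposited and -0.49 with each list divided by its median, and the blue one has a tail below 0 that is thin in the green one.

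Centres of paired GR regions lay 36.0 bp apart in the median with RelA (16.9 and 70.5), against 31.0 bp without, and 62.7% (59.4 to 66.0) lay within 50 bp, against 69.0%. Strong LPS and Dex regions with neither a Dex region nor RelA were weaker and narrower, with a median density of 18.8 and a width of 535 bp, against 32.8 and 665 bp. The 547 strong Dex regions without a strong LPS and Dex region had a median Dex density of 13.1, and 23.8% of them (20.4 to 27.5) were on chromosome X and 18.5% (15.4 to 21.9) inside the block.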

How the data were processed

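The files are 10 lists of enriched regions, 1 per ChIP-seq library of 51 nt single-end reads. The submitters' processing notes name CASAVA and build mm9. The caller behind the lists, its threshold and any use of input are not given in the sources used here. Per the file headers, the authors deposited for each region the highest and mean tag density, a coverage signal of unknown scaling, a score (a z-score) and a p-value, printed as 0 where very small. Library depth is not stated, so no interval for density was made. The lowest score was 9.00 in the Dex list and 9.66 in the LPS and Dex list.

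Overlap and distance were computed with Python 3.11.15, numpy 2.4.6, pandas 2.3.3 and scipy 1.17.1, and the functions were tested on simulated regions. Where a region met several Dex regions, the densest was its partner. Distances are gaps between region edges. The regions, classes and bounds were chosen with earlier results of these data known. Regions were named by rank: the 5 highest by density in each library, by ratio in each direction and by score, the 3 widest, the 3 on each side of each bound, and those meeting other RelA lists. Examples of runs were chosen after their values were seen. Groups follow the sample labels, and no test was made. Alternatives were a 50% overlap, density bounds of 5 and 20, all 7 RelA lists, no RelA within 1000 bp, input kept, chromosome X left out, mean density, and lists divided by their medians. No genome of the files' build was at hand, so no sequence is shown.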

Additional observations from a re-analysis of the deposited data

How the results depend on the processing

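The direction of the ratio held under every alternative run. The number of regions was 2354 and fell to 756 with a density bound of 20. The share higher with LPS and Dex, 80.4%, was 72.4% with a bound of 5, 75.7% with regions overlapping input kept, 84.5% without chromosome X and 68.9% with each list divided by its median. The median log2 ratio, 0.94, was 0.65, 0.82, 1.04 and 0.57 in the same order, and 0.89 with mean in place of highest density. Without the block of chromosome X, an alternative added after the data had been seen, these values were 84.1% and 1.02, and without runs of 5 or more regions 84.4% and 1.03. The share meeting another RelA list, 0.212%, was 1.99% with input regions kept and 0% by construction when all 7 RelA lists were removed. The cause of these moves was not tested. No paired analysis was possible because each condition has 1 library. GR libraries had no input of their own cross-linking here, depth is not given, and nothing shows how a repeat library would differ.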
